A study of Mus musculus with 8 samples.

Results

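Macrophage marker genes were followed in the EDL (extensor digitorum longus), a lower-leg muscle of fast fibres, of mice with an induced, muscle-specific knockout of the acetyltransferases p300 and CBP. The markers were the 9 genes Csf1r, Aif1, Cx3cr1, Cd68, Lgals3, Mrc1, Cd163, C1qa and C1qb. They were found on the array through the accession printed for each probe. In all 11 of the 55681 non-control probes belonged to 8 of the 9 genes, 3 of them to Csf1r and 2 to Cx3cr1. No probe was matched to Cd68 by accession, so that gene has no value here. Of the 11 probes, 10 stood well above background on 4 or more arrays out of 8 and were tested, among 24872 probes tested in all.

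RNA came from EDL muscle of male C57BL/6 mice, 4 with an inducible knockout of p300 and CBP in skeletal muscle (PCKO) and 4 labelled wildtype (WT). The genotype label of the PCKO mice names CBP alone, while the treatment text names both genes. Tamoxifen was gavaged on 5 days, beginning when mice were 13 to 15 weeks old. The muscle was removed 1 day later, once the mice had fasted for 4 h. This text speaks of PCKO mice and stands with every sample, so it does not say whether WT mice received tamoxifen. The Cre driver and the alleles that WT mice carried are not given in the sources used here. The study set early gene expression after loss of both proteins against that of WT muscle, and the marker genes ask how the macrophage part of the muscle RNA compared.

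Macrophages live between the fibres of healthy muscle, where they clear debris and signal to fibroblasts, vessels and muscle stem cells. They depend on the receptor CSF1R, which is activated by CSF1 and IL-34, and many lie near vessels and carry scavenger receptors such as MRC1 and CD163. They are also the main source of the complement protein C1q in most tissues. The knockout was directed at skeletal muscle, and a whole muscle was measured, so fewer macrophages and less RNA per macrophage cannot be told apart.

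All values are log2 of the processed spot intensity, each array being set to 0 at its 75th percentile over non-control probes. On this scale 8 of the 10 tested marker probes were lower in PCKO muscle and 0 were higher, by limma with Benjamini-Hochberg adjustment over all tested probes at a threshold of 0.05. Of all tested probes 65.1% were called, 31.3% lower and 33.8% higher, so many probes moved in both directions. The median log2 difference, PCKO minus WT, was -0.90 over the 10 marker probes and 0.02 over all 24872 probes. With each gene read by its brightest probe, 7 of 8 genes were lower, Lgals3 being the exception, and 0 were higher, against 31.9% and 37.5% of the 12739 named genes. In 5 of the 8 genes (Csf1r, Aif1, Cx3cr1, Cd163 and C1qa) every PCKO array lay below every WT array, an arrangement found in 28.7% of all probes.

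The size of these differences depended on what the arrays were scaled to. The 75th percentile lay -2.80 ± 0.34 (SD, n = 4) from the mean of 7 labelled spike-in control probes on the PCKO arrays and -3.48 ± 0.30 (SD, n = 4) on the WT arrays. The difference of 0.68 had an exact two-sided permutation p of 0.0286, the smallest that 4 against 4 arrays can give. It was 0.0571 without PCKO array 4 or without any 1 of the WT arrays. Centring on the spike-ins therefore moved each probe measured on all 8 arrays up by that amount. With it, 2 of the 10 marker probes were called lower (Aif1 and Cx3cr1) against 9.62% of all probes, and 1 was called higher (a dim Csf1r probe) against 52.1%. On that scale every PCKO array lay below every WT array for Aif1 and Cx3cr1 (7.63% of all probes) and above for the dim Csf1r probe (45.7%). Error shared by all probes of an array enters that fit, so its p-values are too small. The marker median became -0.22, beside 0.70 over all probes. The distance between the marker median and that of all probes was -0.92 under both scalings, an equality that the common shift fixes in advance. It was -1.01 after quantile normalization, and 9 of the 10 marker probes lay below the median of all probes.

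**Figure D1:**
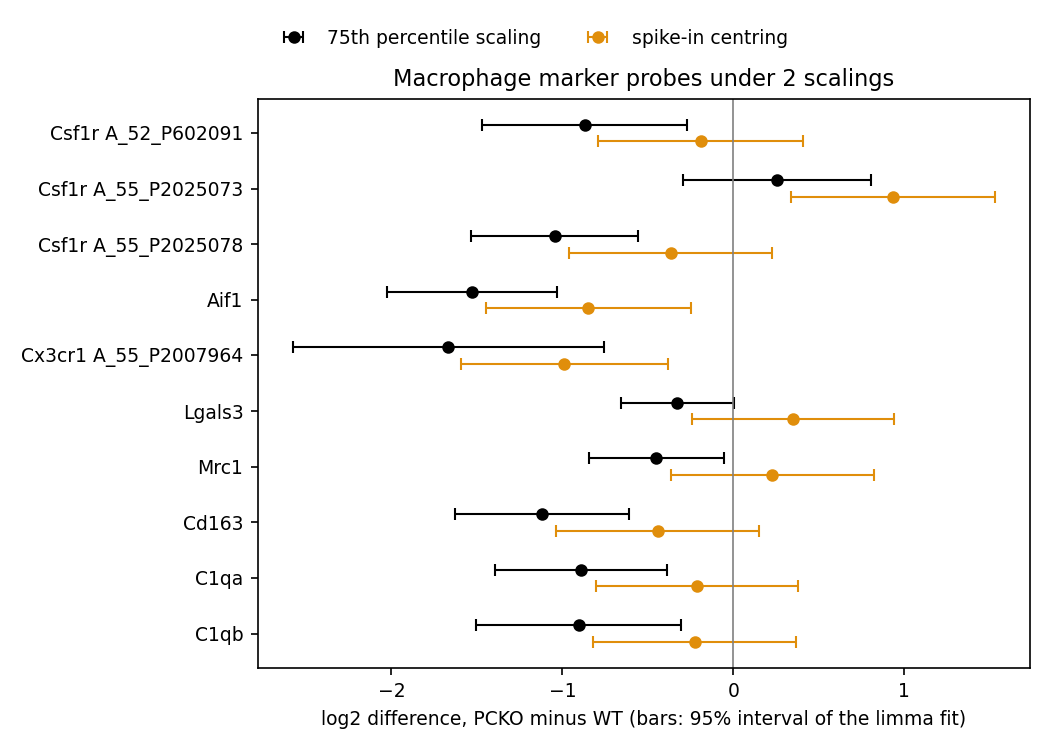
Log2 difference (PCKO minus WT, x axis) of the 10 tested marker probes (y axis), with the 95% interval of the limma fit, after 75th percentile scaling (black) and spike-in centring (orange). The intervals of 8 probes lie wholly below 0 with the first scaling, those of Aif1 and Cx3cr1 with both, and that of Csf1r probe A_55_P2025073 lies wholly above 0 with spike-in centring.

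The arrays were alike in detection and saturation but not in spike-in signal. The mean log2 spike-in signal was 9.68 on PCKO array 4 and between 10.20 and 10.66 on the other arrays. Between 43.5% and 46.1% of non-control probes were well above background on each array, and 0 spots were saturated. All arrays were on 1 slide and in 1 scan, with 2 arrays of each group in each of its 2 rows. In both rows PCKO arrays held positions 1 and 2 and WT arrays positions 3 and 4. Group and position along the row therefore cannot be told apart. Within row 1 alone 6 of the 10 marker probes were called lower, within row 2 alone 3, and with the row as a block 7. The targeted genes had 1 matched probe each. Ep300, which encodes p300, differed by -1.44 ± 0.11 (SE, limma adjusted p = 9.6e-06) and by -0.77 with spike-in centring (adjusted p = 0.022). Crebbp, which encodes CBP, differed by -0.70 ± 0.11 (SE, adjusted p = 6.0e-04), a difference that was -0.02 with spike-in centring (adjusted p = 0.953). Whether either probe falls inside the deleted exons is unknown, so neither checks the knockout.

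The first group of markers holds the growth factor and chemokine receptors. Csf1r encodes the receptor tyrosine kinase on which most tissue macrophages depend. Its brightest probe (A_55_P2025078) read 3.54, 3.96, 3.64 and 2.88 on PCKO arrays 1 to 4 and 4.70, 4.68, 4.45 and 4.36 on WT arrays 1 to 4. The groups did not overlap, and PCKO array 4 was the lowest of all. The probe fell by 1.04 ± 0.21 on the log2 scale (SE, limma adjusted p = 0.00261), a level 2.06-fold lower in PCKO muscle. With spike-in centring the difference was -0.37 (95% interval -0.96 to 0.23, adjusted p = 0.284).

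The other probes of Csf1r were dim and differed from each other in sign. Probe A_52_P602091, with intensities of 17.7 to 45.4, read -3.16, -2.17, -2.80 and -3.14 in PCKO and -1.73, -2.05, -1.57 and -2.43 in WT muscle. PCKO array 2 lay above WT array 4, so the groups overlapped, and the difference was -0.87 ± 0.26 (SE, adjusted p = 0.0174; -0.19 and adjusted p = 0.593 with spike-in centring). Probe A_55_P2025073, with intensities of 11.6 to 29.9, read -2.46, -3.14, -2.70 and -2.77 in PCKO and -2.50, -3.64, -3.03 and -2.93 in WT muscle. Its groups overlapped and it differed by 0.26 ± 0.24 (SE, adjusted p = 0.373), while with spike-in centring it was called higher by 0.93 (adjusted p = 0.0051). With normexp background correction the same probe turned to -0.34 (adjusted p = 0.0588), so its sign changed with the background correction.

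Cx3cr1 encodes the receptor for fractalkine, a chemokine held on the surface of endothelial cells. Its tested probe (A_55_P2007964) read -4.10, -3.70, -4.09 and -5.64 in PCKO and -2.71, -2.58, -2.36 and -3.21 in WT muscle. It was well above background on 4 of 4 WT arrays and on 0 of 4 PCKO arrays, so the PCKO level is only a bound. Set against the lowest signal well above background on each PCKO array or the probe's own value, whichever was higher, Cx3cr1 was at least 2.18-fold lower in PCKO muscle on this scale. That lowest signal is not a strict detection limit. PCKO array 2, at -3.70, was not well above background but lay over its lowest signal of -4.01. The fitted difference was -1.67 ± 0.40 (SE, adjusted p = 0.00577). It was -0.99 with spike-in centring (adjusted p = 0.00366), where the bound was at least 1.36-fold lower. With normexp background correction (offset 50) the fitted difference was -0.64 (adjusted p = 0.000548). That is smaller in size than the first bound, 1.12 on the log2 scale, so the bound holds only for the processed intensity. The second probe of Cx3cr1 (A_52_P99810) was well above background on 0 of 8 arrays, lay between -6.22 and -5.29 in both groups and was not tested.

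The scavenger receptors form the next group. Cd163 encodes the receptor for haptoglobin-bound haemoglobin, which is found mainly on resident macrophages. Its probe read -3.56, -2.98, -3.71 and -4.06 in PCKO and -2.38, -2.52, -2.20 and -2.74 in WT muscle. The groups did not overlap, but the probe was dim, with intensities of 9.36 to 26.5, and was well above background on 2 of 4 PCKO arrays and 4 of 4 WT arrays. It fell by 1.12 ± 0.22 on the log2 scale (SE, adjusted p = 0.00223), and by 0.44 with spike-in centring, where it was not called (adjusted p = 0.192).

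Mrc1 encodes the mannose receptor CD206, which takes up glycoproteins and microbes and is common on resident and repair macrophages. Its probe read 1.53, 1.91, 1.85 and 1.18 in PCKO and 2.07, 2.22, 2.16 and 1.83 in WT muscle. PCKO arrays 2 and 3 lay above WT array 4. The difference of -0.45 ± 0.17 (SE, adjusted p = 0.0474) was at the edge of the threshold, and it was 0.23, with the sign turned, after spike-in centring (adjusted p = 0.516). The call was lost without any 1 of PCKO array 1 (adjusted p = 0.101), PCKO array 4 (0.0963), WT array 1 (0.084), WT array 2 (0.109) or WT array 3 (0.1).

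Aif1 encodes IBA1, a calcium-binding protein of the actin skeleton that serves as a general stain for macrophages and microglia. Its probe read -2.11, -1.38, -1.66 and -2.30 in PCKO and -0.34, 0.00, -0.38 and -0.63 in WT muscle. Every PCKO array lay well below the lowest WT array, and the spread within each group (SD 0.42 and 0.26) was small beside the gap. The fall of 1.53 ± 0.22 on the log2 scale (SE, adjusted p = 3.5e-04) corresponded to a level 2.88-fold lower. With spike-in centring Aif1 was lower by -0.85 (95% interval -1.45 to -0.25, adjusted p = 0.0116). That call was lost without PCKO array 1 (-0.63, adjusted p = 0.0594) or without WT array 2 (-0.67, adjusted p = 0.0937).

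Lgals3 encodes galectin-3, a lectin that binds galactose-bearing sugars, which activated macrophages make in quantity and other cells, among them fibroblasts, also make. Its probe read 3.87, 3.85, 3.70 and 3.36 in PCKO and 4.01, 4.02, 4.27 and 3.79 in WT muscle. PCKO arrays 1 and 2 lay above WT array 4, so the groups overlapped. The difference was -0.33 ± 0.14 (SE, 95% interval -0.66 to 0.00, adjusted p = 0.0754) and 0.35 with spike-in centring (95% interval -0.24 to 0.94, adjusted p = 0.304). Without WT array 4 it was called lower (-0.41, adjusted p = 0.0421).

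C1qa and C1qb encode chains of C1q, the recognition molecule that starts the classical complement pathway. With C1qc they lie next to each other in the RefSeq gene table on chromosome 4, in the order C1qb, C1qc, C1qa. The C1qa probe read 0.55, 0.92, 0.50 and -0.14 in PCKO and 1.48, 1.47, 1.43 and 1.01 in WT muscle. The groups did not overlap, PCKO array 4 and WT array 4 being the lowest of their groups. C1qa fell by 0.89 ± 0.22 on the log2 scale (SE, adjusted p = 0.00684; -0.21 and adjusted p = 0.545 with spike-in centring).

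The C1qb probe read -0.50, -0.35, -0.75 and -1.05 in PCKO and 0.53, 0.76, 0.11 and -0.42 in WT muscle. PCKO array 2 lay above WT array 4, so the groups overlapped, and C1qb fell by 0.91 ± 0.26 on the log2 scale (SE, adjusted p = 0.0146; -0.23 and adjusted p = 0.520 with spike-in centring). C1qc, the third chain, fell by 0.81 ± 0.21 (SE, adjusted p = 0.00822; -0.13 with spike-in centring, adjusted p = 0.721). The 3 chains thus differed by similar amounts on each scale.

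**Figure D2:**
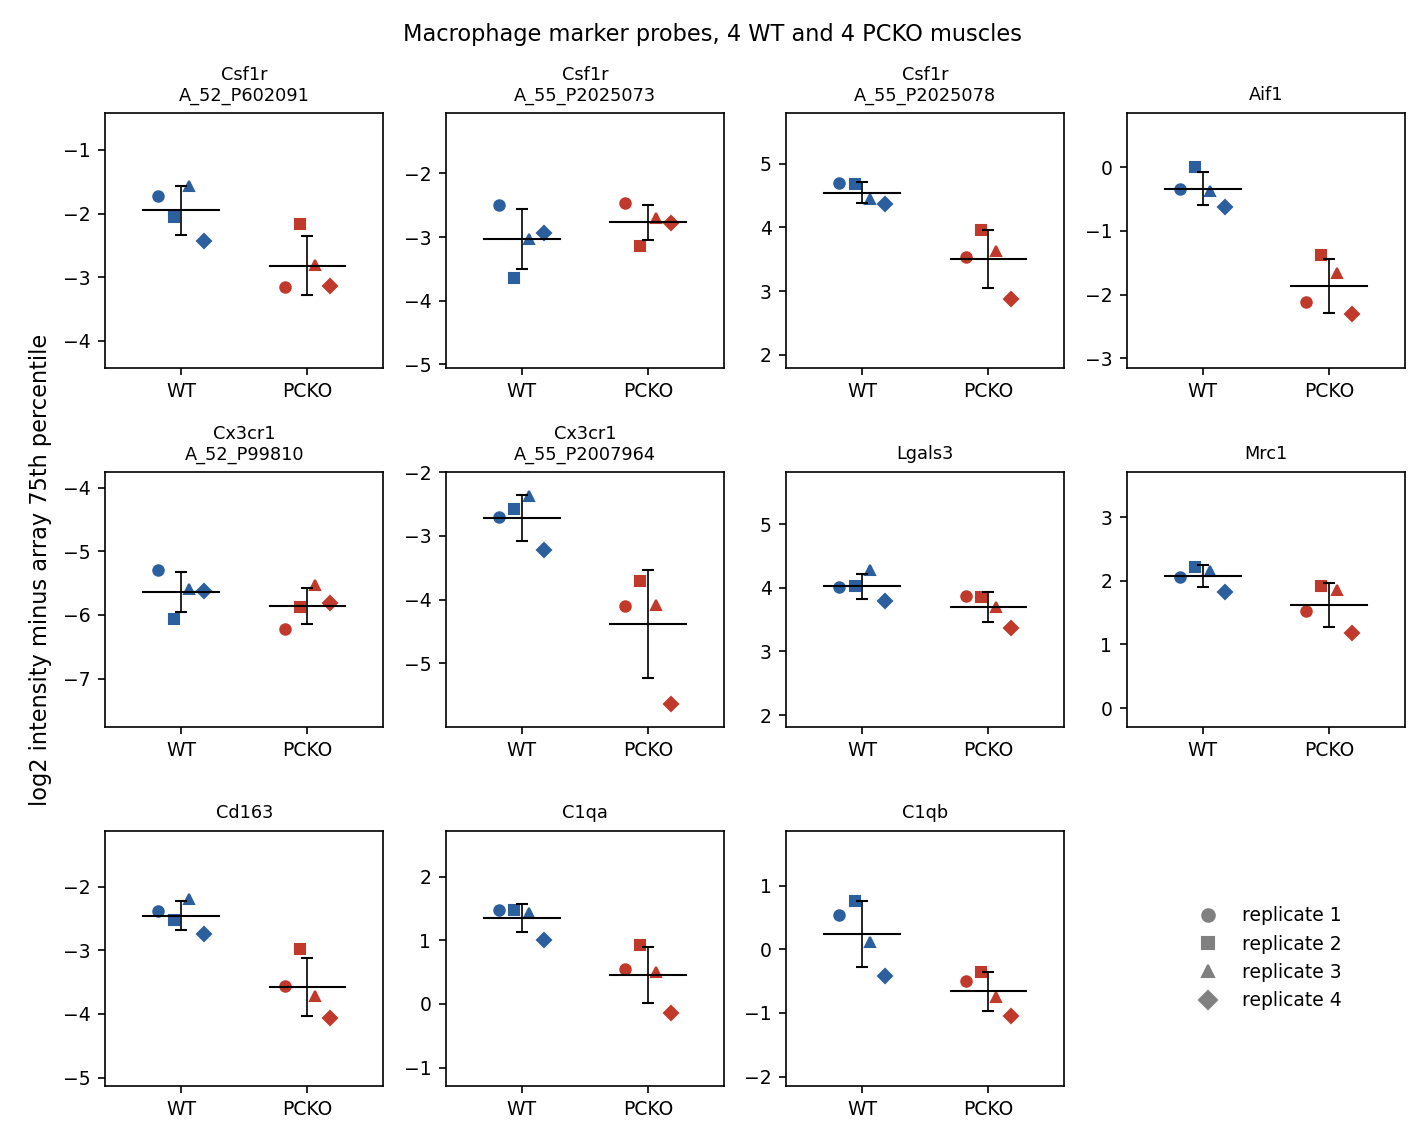
Log2 intensity minus the array's 75th percentile (y axis) for every probe of the marker genes, with WT arrays in blue and PCKO arrays in red, 1 symbol for each replicate number. Horizontal lines are group means and bars are SD (n = 4), and the separation is clearest for Aif1, where PCKO arrays lie between -2.30 and -1.38 and WT arrays between -0.63 and 0.00.

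Differences between markers on the same array stay the same when a constant is subtracted from each array, as in percentile scaling and spike-in centring. They can change with quantile normalization or background correction. With normexp background correction the differences of Aif1 and C1qa went from -1.53 and -0.89 to -0.92 and -0.65, and so came closer. Those of Csf1r and Mrc1 went from -1.04 and -0.45 to -0.78 and -0.20, nearly keeping their distance. The ratios below are from the processed intensity. For each of the 28 pairs of the 8 genes, the log2 ratio within an array was compared between groups by an exact two-sided permutation test. In 16 pairs the PCKO and WT ratios did not overlap, which gives the smallest possible p of 0.0286. After Benjamini-Hochberg adjustment over the 28 pairs these stood at 0.05, so 0 pairs passed below the threshold, and at an unadjusted threshold of 0.05 there were 16. The log2 ratio of Aif1 to Lgals3 differed by -1.20 (PCKO minus WT) and that of Aif1 to Mrc1 by -1.08. The ratios of Aif1 to C1qa and to C1qb differed by -0.64 and -0.62. The ratio of Csf1r to Mrc1 differed by -0.60 and that of Csf1r to Lgals3 by -0.72.

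Other pairs moved little relative to each other. The C1qa to C1qb ratio was 1.12 ± 0.17 (SD, n = 4) in PCKO and 1.10 ± 0.33 (SD, n = 4) in WT muscle, a difference of 0.01 (exact p = 0.943). The Csf1r to C1qa ratio differed by -0.15 (exact p = 0.114) and the Lgals3 to Mrc1 ratio by 0.12 (exact p = 0.4). Ratios that involve Cx3cr1 rest on PCKO signals that were not well above background. Among the genes measured above background on all arrays, Aif1 had the most negative difference, Csf1r, C1qa and C1qb lay between, and Mrc1 and Lgals3 had the smallest. Cx3cr1 has only a bound and Cd163 was above background on 2 of 4 PCKO arrays, so neither is placed in this order.

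**Figure D3:**
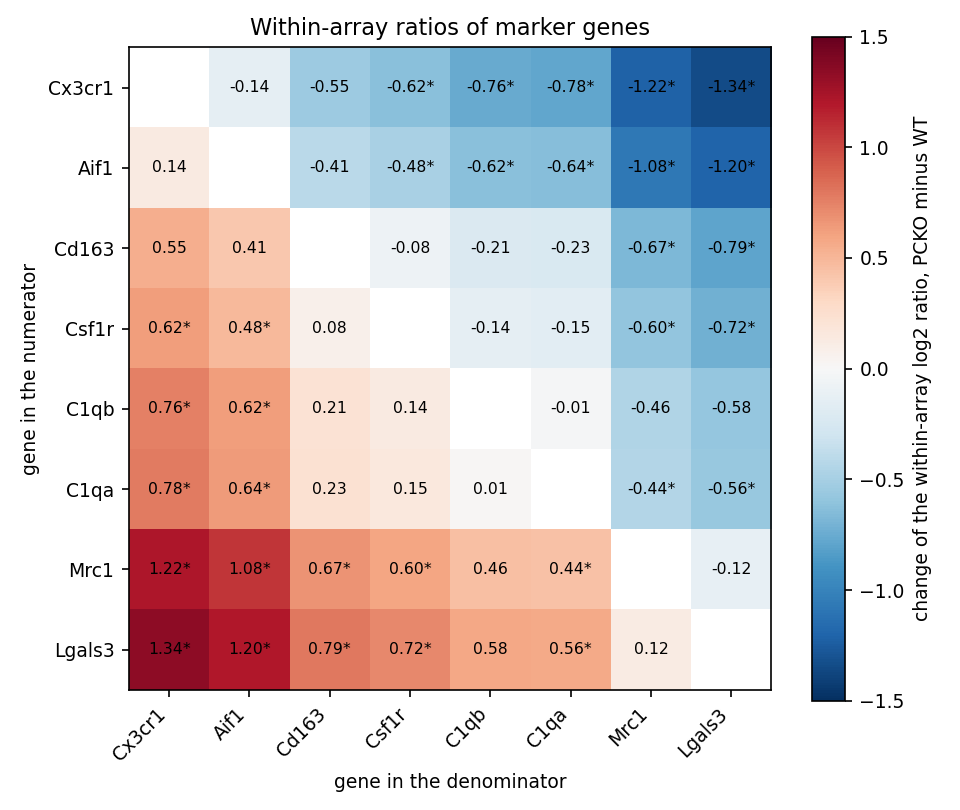
Change in the within-array log2 ratio of each marker gene (rows, numerator) to each other marker gene (columns, denominator), PCKO minus WT, with blue for a lower and red for a higher ratio in PCKO muscle. An asterisk marks the 16 pairs whose PCKO and WT ratios do not overlap (exact p = 0.0286, adjusted 0.05), and the Mrc1 and Lgals3 rows are red against the 6 other markers, from 0.44 to 1.34.

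Promoters are shown for 3 markers, Aif1 as the marker with the largest fall among those measured above background on all arrays, and C1qb and Mrc1 because theirs were the windows that held the string in capitals. Each is the 250 bases before the RefSeq start on the gene's own strand, in build GRCm38.p6, and lies at chr17:35176053-35176302 (minus strand) for Aif1, chr4:136886201-136886450 (minus strand) for C1qb and chr2:14229164-14229413 (plus strand) for Mrc1. Capitals mark ACTTCCT, the reverse complement of AGGAAGT, which holds the GGAA core bound by ETS-family factors such as PU.1, a main regulator of macrophage genes.
Aif1: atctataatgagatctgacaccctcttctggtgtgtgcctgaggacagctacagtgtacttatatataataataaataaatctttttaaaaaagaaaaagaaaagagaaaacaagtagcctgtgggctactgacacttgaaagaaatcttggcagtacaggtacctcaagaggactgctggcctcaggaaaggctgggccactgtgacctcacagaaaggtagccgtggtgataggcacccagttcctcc
C1qb: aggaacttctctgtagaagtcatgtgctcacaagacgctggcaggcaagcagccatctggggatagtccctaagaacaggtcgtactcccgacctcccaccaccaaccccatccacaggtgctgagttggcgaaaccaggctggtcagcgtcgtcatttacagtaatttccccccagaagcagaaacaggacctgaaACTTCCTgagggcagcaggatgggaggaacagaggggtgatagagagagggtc
Mrc1: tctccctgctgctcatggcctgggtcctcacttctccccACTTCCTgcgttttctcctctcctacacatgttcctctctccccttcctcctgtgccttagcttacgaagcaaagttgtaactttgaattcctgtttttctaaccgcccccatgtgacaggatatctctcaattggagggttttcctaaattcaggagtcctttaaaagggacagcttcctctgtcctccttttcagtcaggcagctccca
The string was searched on both strands, and it was chosen after 8 strings had been looked for in these promoters. It starts 53 bases upstream of the C1qb start and 211 bases upstream of the Mrc1 start. Of the 9 marker genes 7 were in the promoter table, and 2 of those 7 windows held it, against 7.69% of 32851 promoter windows of the same length. The Aif1 window, from the marker with the clearest fall, did not hold it. A match is a description of letters and not of binding.

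The ligands that keep macrophages in tissue, and other lists of genes, were read beside the markers. Across all named genes 31.9% were lower and 37.5% higher, and 9.40% and 53.5% with spike-in centring, which is the background for each list. Of 16 genes for growth and homing ligands, 11 were tested, with 7 lower and 1 higher, and with 3 lower and 1 higher after spike-in centring. Both ligands of CSF1R, Csf1 and Il34, were lower, by -0.997 ± 0.154 (SE, adjusted p = 0.000543) and -0.83 ± 0.11 (SE, adjusted p = 0.000212), and these were named after their values were seen, as was Cx3cl1. Neither was called with spike-in centring (-0.32 and -0.15). Cx3cl1, the fractalkine bound by CX3CR1, went the other way and was the 1 higher gene, by 0.89 ± 0.09 (SE, adjusted p = 5.01e-05) and by 1.57 with spike-in centring (adjusted p = 3.35e-06). The largest fitted differences were in the monocyte-attracting chemokines Ccl8 (-2.59 ± 0.43, SE, adjusted p = 0.00084) and Ccl12 (-2.55 ± 0.33, SE, adjusted p = 0.00035), both lower with spike-in centring too. Ccl8 was well above background on 3 of 4 PCKO arrays and Ccl12 on 1, and both on 4 of 4 WT arrays, so the size of the Ccl12 difference is set by signals at background. A PCKO spot of Ccl12 was marked as an outlier and left out, and with it kept the call was lost (-1.15, adjusted p = 0.434).

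Other macrophage surface genes mostly fell. Of 40 receptor and surface genes 27 were tested, 19 were lower and 0 higher, with a median of -0.75 beside 0.06 over all named genes. With spike-in centring 5 were lower and 2 higher. The lectin Cd209f, above background on all arrays, differed by -1.90 (adjusted p = 0.00115). Ccr2, the receptor that draws monocytes from blood, had a fitted difference of -1.89 (adjusted p = 0.00448), but it was well above background on only 1 of 4 PCKO and 3 of 4 WT arrays, so its size is uncertain. Adgre1, which encodes F4/80 and was named after its value was seen, fell by 1.36 ± 0.21 on the log2 scale (SE, adjusted p = 0.000614) and was lower with spike-in centring as well (-0.68, adjusted p = 0.0413).

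Of 17 tested complement genes outside the marker list 13 were lower and 3 higher (Cr1l, Cd59a and Calr). Cfb, factor B of the alternative pathway (-1.87, adjusted p = 8.09e-05), and C1s1, a protease of the C1 complex (-1.36), differed most, and both were lower in the spike-in fit, where 2 of 17 genes were lower and 3 higher, near the share of lower calls among all named genes.

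Of 9 tested genes of antigen presentation 6 were lower and 0 higher. H2-Ab1 (-1.97 ± 0.29, SE, adjusted p = 0.000421) and H2-Aa (-1.90 ± 0.30, SE, adjusted p = 0.000618), chains of the class II molecule, differed most. With Cd74 and H2-Eb1 they were also the 4 genes of the list called lower with spike-in centring. Class I genes were different in value, H2-K1 at 0.20 (adjusted p = 0.181), H2-D1 at -0.25 (adjusted p = 0.216) and B2m at -0.38 (adjusted p = 0.0857). With spike-in centring H2-K1 was the 1 gene of the list called higher (0.88, adjusted p = 0.00793). No test of the difference between the classes was made.

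Of 31 lysosomal and phagocytic genes 29 were tested, 14 lower and 10 higher, with a median of -0.39 (0.29 with spike-in centring, where 1 was lower and 12 higher). The share of higher genes was near that of all named genes with the first scaling and below it with the second. Slc40a1, the iron exporter ferroportin, fell most (-1.70, adjusted p = 2.29e-06; -1.02 with spike-in centring, adjusted p = 0.00215), followed by Ncf4, a subunit of the phagocyte oxidase (-1.17). Among the higher genes were Ctsl, Ctsz, Lgmn, Cd63, Lamp2, Gpnmb, Npc2, Lipa and Grn, which encode enzymes and membrane proteins of the lysosome that many cell types make, muscle fibres among them. Lipa, the lysosomal acid lipase, was higher by 1.16 (adjusted p = 0.00379).

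Signalling and transcription genes gave 11 lower and 4 higher of 19 tested, with a median of -0.68. With spike-in centring the balance turned, to 1 lower and 5 higher with a median of 0.00. Klf4, which acts in monocytes and in many other cells, was higher by 1.86 (adjusted p = 1.97e-05), as were Runx1, Nr1h3 and Plcg2. Spi1, which encodes PU.1, and Cybb were on the array but not above background often enough to be tested.

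Of 13 tested inflammatory and repair genes 6 were lower and 2 higher (Chil3 and Tgfb1), with a median of -0.38. With spike-in centring 4 were lower and 5 higher, with a median of 0.30. Cd40, a receptor that receives signals from T cells, was well above background on 4 of 4 WT and 0 of 4 PCKO arrays. By the bound used for Cx3cr1 it was at least 2.85-fold lower in PCKO muscle. Over the alternatives its difference ran from -2.24 to -0.50, so the bound did not hold in all of them. Chil3, a chitinase-like protein of activated macrophages, was well above background on 4 of 4 PCKO and 0 of 4 WT arrays. By the same kind of bound it was at least 1.97-fold higher, but with normexp background correction its difference was -0.10 (adjusted p = 0.605). Il1b, Il1a, Tnf, Il10, Arg1, Ptgs2, Nlrp3, Il1rn, Osm and Mmp12 were not tested because they were too seldom above background.

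**Figure D4:**
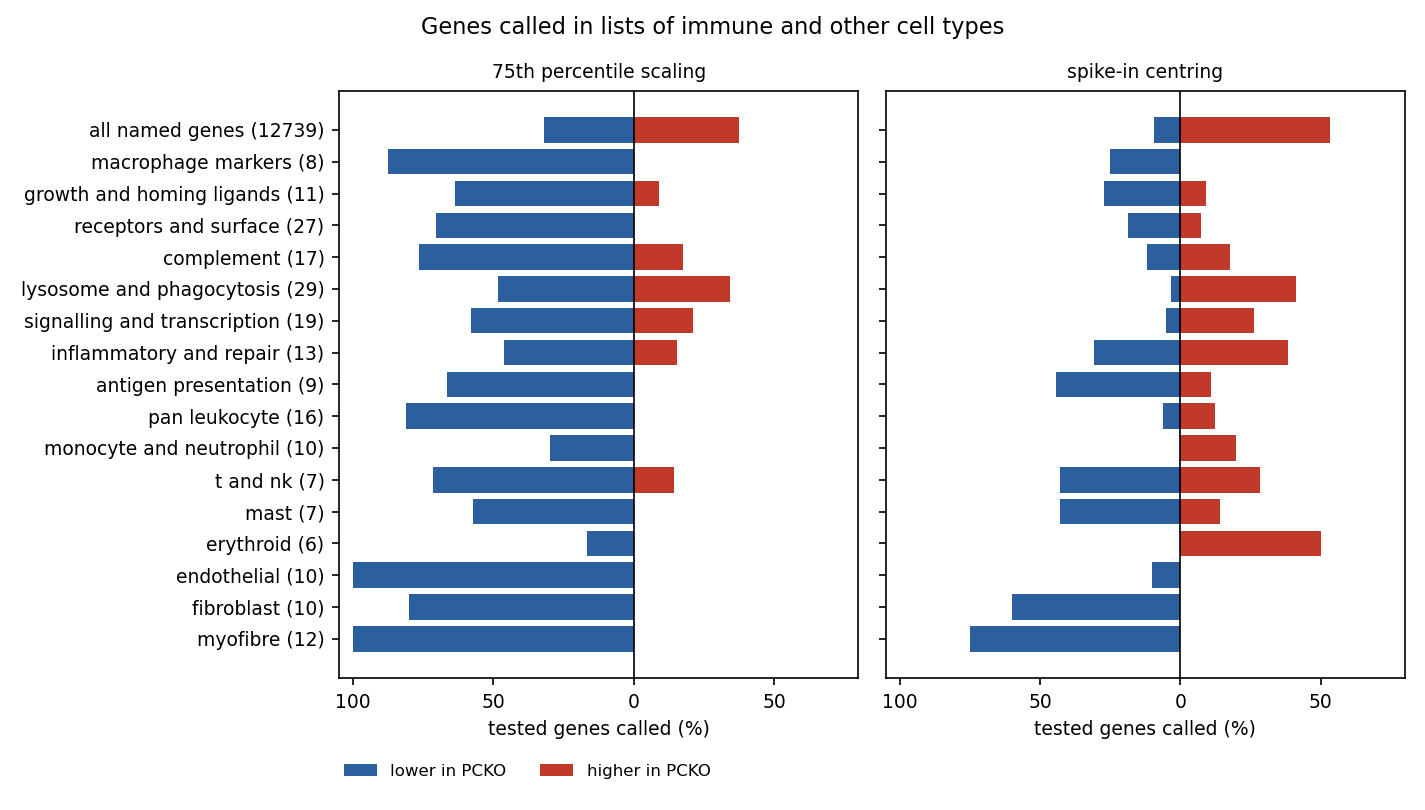
Percent of tested genes called lower (blue, left) and higher (red, right) in PCKO muscle for each list with at least 6 tested genes, with the number tested in brackets, after 75th percentile scaling (left panel) and spike-in centring (right panel). With the first scaling the bar of the 8 markers runs to 7 lower and 0 higher, and all 10 endothelial and all 12 fibre genes are lower, while 4064 of the 12739 named genes are.

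Markers of other cell types moved in the same samples. Each list was summed within an array (log2 of the summed scaled intensities of its tested genes). Intensities were added before taking the log, so the brightest genes of a list weigh most in its sum. The markers of macrophages summed to 4.43 to 5.21 in PCKO and 5.38 to 5.71 in WT muscle, ranges that did not overlap, and to 1.79 to 2.32 and 1.81 to 2.42 with spike-in centring, ranges that did. Genes of all leukocytes were lower in 13 of 16 cases and higher in 0, with sums of 3.51 to 4.09 in PCKO and 5.61 to 5.82 in WT muscle. With spike-in centring 1 gene was lower and 2 were higher, with sums of 0.660 to 1.355 in PCKO and 1.880 to 2.525 in WT muscle. Lsp1 alone averaged 2.93 in PCKO and 5.39 in WT muscle with the first scaling, so it made up most of the WT sum. Lsp1, an actin-binding protein of leukocytes and endothelium, differed most (-2.45, adjusted p = 6.83e-07; -1.77 with spike-in centring), followed by Arhgdib, which binds small GTPases in leukocytes (-1.25). Ptprc, which encodes the leukocyte antigen CD45, differed by -0.86 (adjusted p = 0.0174) and by -0.18 with spike-in centring (adjusted p = 0.604).

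Monocyte and neutrophil genes were lower in 3 of 10 cases and higher in 0, near the share of lower calls among all named genes. Their sums were 6.80 to 6.99 in PCKO and 6.82 to 7.44 in WT muscle. With spike-in centring 0 of these genes were lower and 2 higher. The sums were then 3.8 to 4.5 in PCKO and 3.4 to 3.7 in WT muscle, wholly higher in PCKO. The largest differences with the first scaling were those of Vcan (-1.31) and F13a1 (-0.93). Another tested probe of Vcan, less bright, was not called (-0.594, adjusted p = 0.169). Neither gene was called with spike-in centring (Vcan at -0.63, adjusted p = 0.0601, and F13a1 at -0.25, adjusted p = 0.474). S100a8 and S100a9, abundant in neutrophils, were at 0.89 (adjusted p = 0.314) and 0.74 (adjusted p = 0.394). T and NK cell genes gave 5 lower and 1 higher (Lck) of 7 tested (3 and 2 with spike-in centring), with sums of 1.05 to 1.56 in PCKO and 2.88 to 3.31 in WT muscle. With spike-in centring the sums were -2.142 to -1.145 in PCKO and -0.695 to 0.024 in WT muscle, also without overlap. Among these genes Thy1, also made by fibroblasts, differed by -2.29. At a mean of 0.59 in PCKO and 2.88 in WT muscle with the first scaling, Thy1 made up most of the WT sum. Gzma, above background on 0 of 4 PCKO arrays, was at least 2.06-fold lower by the bound used for Cx3cr1. Over the alternatives the Gzma difference ran from -3.37 to -0.61, so the bound did not hold in all of them. Cd3d, Cd3g, Cd8a and Cd8b1 were not tested. Mast cell genes were lower in 4 of 7 cases (3 lower and 1 higher with spike-in centring), led by Kit (-1.55) and Mcpt4 (-1.52), with sums of 1.15 to 2.12 and 2.58 to 3.14. With spike-in centring the mast cell sums overlapped (-1.24 to -0.76 in PCKO and -1.28 to -0.15 in WT muscle).

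Dendritic and B cell genes were mostly below background. Of the dendritic list 2 genes were tested, with Cd209a lower (-2.16) and sums of 5.81 to 6.06 and 5.92 to 6.33. With spike-in centring the dendritic sums were 2.86 to 3.53 in PCKO and 2.44 to 2.74 in WT muscle, wholly higher in PCKO. Cd209a averaged only -2.60 in PCKO and -0.43 in WT muscle with the first scaling, so the other tested gene, Siglech, made up most of both sums. Siglech was not called (-0.16, adjusted p = 0.217, and 0.52, adjusted p = 0.121, with spike-in centring). Cd209a itself was lower with spike-in centring too (-1.48, adjusted p = 1.3e-05). Flt3, Zbtb46, Xcr1, Clec9a and Itgax were not tested. Of the B cell list only Cd79b was tested (-0.76, adjusted p = 0.0424), and Cd79a and Ms4a1 were not. Erythroid genes, a sign of blood in the sample, were lower in 1 of 6 cases (Hba-a2 at -0.37, and at 0.31 with spike-in centring), with overlapping sums of 10.6 to 11.2 and 10.5 to 11.7.

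Lists of vessel, connective tissue and fibre genes were lower as well. Endothelial genes were lower in 10 of 10 cases (median -0.85), led by Vwf (-1.37) and Tie1 (-1.08), with sums of 7.20 to 7.47 in PCKO and 8.00 to 8.23 in WT muscle. Fibroblast genes were lower in 8 of 10 cases (median -1.45), led by the collagen genes Col1a1 (-3.23) and Col3a1 (-2.81), with sums of 8.00 to 8.61 and 9.28 to 9.86. Fibre genes were lower in 12 of 12 cases (median -3.11), led by Tpm2 (-4.46) and Mylpf (-4.43), while the fast myosin gene Myh4 (-0.66) and the troponin genes Tnnt3 (-0.76) and Tnni2 (-0.63) were lower by less and were not called with spike-in centring, with sums of 11.2 to 11.5 and 12.9 to 13.2. With spike-in centring 1 endothelial, 6 fibroblast and 9 fibre genes were lower and 0 of each were higher. On that scale the endothelial sums overlapped (4.253 to 4.925 in PCKO and 4.244 to 4.840 in WT muscle). The fibroblast sums did so barely (4.935 to 5.760 and 5.754 to 6.571). The fibre sums did not overlap (8.20 to 8.91 and 9.31 to 9.80). The markers moved in the direction of all these lists, and the part of each in the marker result was not tested.

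The genes with the profiles most like each marker were found among all named genes by the root mean square difference of log2 values, centred on each probe's own mean, over the 8 arrays. Nearest to C1qa were C1qc (0.09) and F13a1 (0.11), and nearest to the bright Csf1r probe were F13a1 (0.08) and Cd48 (0.10). Folr2 (0.13) and Retnla (0.25) were nearest to Cx3cr1, Hspb8 (0.08) and Cd53 (0.11) to Cd163, and Frat2 (0.18) and Tyrobp (0.18) to C1qb. Aif1 lay nearest to the extracellular matrix genes Thbs3 (0.09) and Pamr1 (0.13), and the dimmer Csf1r probe A_52_P602091 to the collagen genes Col4a2 (0.12) and Col4a1 (0.15). For Lgals3 the nearest were Trpv4 (0.08) and Actg1 (0.08), for Mrc1 Mical1 (0.09) and Osr1 (0.09), and for Csf1r probe A_55_P2025073 Rccd1 (0.16) and Abi1 (0.19).

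Within each group the 8 markers followed the same arrays. After 75th percentile scaling PCKO array 4 was the lowest of its group for 8 of 8 genes, WT array 4 for 8 of 8, and PCKO array 2 was the highest for 7 of 8. These low arrays were also those with the highest 75th percentile relative to the spike-ins in their groups, at -2.40 and -3.21. With spike-in centring PCKO array 1 and WT array 1 were the lowest for 7 genes each, and their percentiles were the lowest of their groups, at -3.20 and -3.89. PCKO array 2 and WT array 2 were then the highest for 6 genes each. The order of arrays within a group therefore changed with the scaling. On each array the 2 scalings differ only by its 75th percentile minus its spike-in mean, so that quantity makes up the whole change in order. Why the markers followed the same arrays was not tested.

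**Figure D5:**
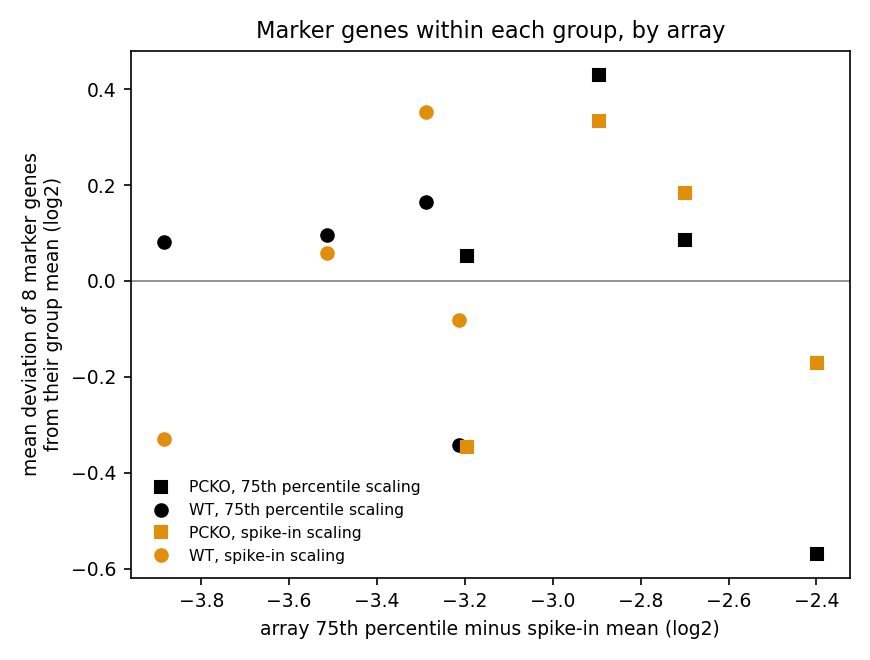
Mean deviation of the 8 marker genes from their group mean (y axis, log2) on each array against that array's 75th percentile minus its spike-in mean (x axis, log2), after 75th percentile scaling (black) and spike-in centring (orange), squares for PCKO and circles for WT. PCKO array 4 at -0.57 and WT array 4 at -0.34 are the lowest black points, while the lowest orange points are PCKO array 1 at -0.35 and WT array 1 at -0.33.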

How the data were processed

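RNA of 8 EDL muscles was labelled with Cy3 and hybridised to Agilent 1-colour arrays, per the labels' protocols. The deposited scanner files hold, per the file headers, spot intensity values made with Feature Extraction 10.7.3.1, already background-subtracted and not normalized between arrays. The deposited series table holds log2 values of 32622 non-control probes, 4 of them marker probes. Its making is not described in the sources used here. Each of its columns correlated best with its own array (r of 0.992 to 0.996), its column medians were 5.45 to 5.52, and it was used only as an alternative.

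From the processed intensity, log2 values minus each array's 75th percentile were computed. Non-uniform and outlier spots were left out and spots of a probe averaged. A probe was tested if well above background on at least 4 of 8 arrays. limma 3.58.1 in R 4.3.3 (lmFit, eBayes, group only, two-sided) compared 4 PCKO with 4 WT samples, probe by probe, over 24872 probes, and was checked on simulated data. Gene lists were read by each gene's brightest tested probe, and no set test was run. Spike-in centring used 7 of 10 control probes. The number of arrays limits the precision.

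Genes were named through unversioned accessions in the RefSeq table of GRCm38.p6 (26582 of 55681 probes matched, and 29099 stayed unnamed). Probe coordinates are left out because the array was annotated on mm9. Probes that share sequence with related genes were not separated. Promoter sequences are from RefSeq, build GRCm38.p6.

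The text names the marker genes, both targeted genes, the 2 genes of each list with the largest difference among those past the threshold, and the 2 nearest profiles of each tested marker probe. Any other gene named was chosen after its value was seen, and a gene that the rule takes is not reported here. The members and lists were chosen with earlier results of these data known. The pair ratios, the promoter string and the alternatives for genes outside the marker list were chosen after seeing the data. The labels give 4 samples per group and the p-values measure the spread between them. Replicate numbers shared by the groups were checked for pairing (r of 0.06, 0.09, 0.04 and 0.02 between same-numbered samples) and were not used. Alternatives covered scaling, filter, background correction, outlier spots, slide row, replicate block, the deposited table, gene-level values and leaving out each array.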

Additional observations from a re-analysis of the deposited data

Results flagged for a closer look

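C1qa on WT array 4 stood apart from the rest of its group. Its level of 1.01 lay below the nearest other WT array at 1.43, a gap that was 0.896 of the whole WT range and above the 95% critical value of Dixon's test for 4 samples. It was the only such case among 20 groups of marker probe values, and chance gives about 1 in 20.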

How the results depend on the processing

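The count of 8 marker probes called lower fell to 2 with spike-in centring and to 3 with slide row 2 alone, and 1 was then higher with spike-in centring. The deposited table holds only 4 of the marker probes. There 3 were called lower and Lgals3 was not, the same calls as in the main fit. The count was 6 to 9 in the other alternatives and 7 to 9 with each array left out in turn. The 2 probes called lower with spike-in centring became 1 to 2 with an array left out, 1 without PCKO array 1 or WT array 2. The 75th percentile against the spike-ins differed by 0.54 to 0.81 with an array left out. Of the alternatives for single marker probes, 174 kept their side of the threshold, 22 lost the call, 3 gained it and 1 called difference turned sign, Mrc1 with spike-in centring (0.23). Among the 174 are sign changes of differences not called in either fit, Lgals3 with spike-in centring (0.35) and Csf1r probe A_55_P2025073 with normexp (-0.34). Of those for other named genes, 648 kept both, 25 lost the call and 3 turned, Chil3 with normexp (-0.10) and Hba-a2 with spike-in centring (0.31) and quantile normalization (0.31). The cause of these changes was not tested, beyond the fewer samples of a row alone. With the replicate number as a block, 15891 probes were called against 16182 and 9 marker probes were lower, Lgals3 being added (adjusted p = 0.0426). For 3 of 4 numbers the sample correlated best with its own number, and no call of a marker probe was lost with the block. Dim spots limit Cx3cr1, Cd163 and 2 Csf1r probes, and among other named genes Ccl8, Ccl12, Ccr2, Cd40, Chil3, Gzma, Cd79b and Kit.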
